A study of Mus musculus with 6 samples.

Results

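A set of 10 genes that are widely used as readouts of YAP and TAZ activity are described here in mouse embryonic fibroblasts that carry the R206H allele of Acvr1. They were Ankrd1, Amotl1, Amotl2, Ajuba, Axl, Nt5e, Ccdc80, Wwc1, Nuak2 and Crim1, taken by symbol, and all 10 were among the 49315 genes of the deposited table. The mutant cells were Acvr1R206H/+, that is, heterozygous for the allele, and the reference cells were wild type (Acvr1+/+), with 3 libraries each (R206H and WT below). All cells came from embryos at day 13.5, grew in serum-containing medium and were harvested at passage 0 after 2 days in culture. The protein made from Acvr1 is a receptor of the BMP (bone morphogenetic protein) family, and the R206H change underlies most cases of fibrodysplasia ossificans progressiva, in which soft tissue turns to bone. The labels name no sex, litter, strain or driver of the allele, and the design text calls the libraries biological replicates. RNA depleted of ribosomal RNA was sequenced, and levels are in TPM, transcripts per 1000000, which are scaled by gene length within each library.

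YAP and TAZ are transcriptional coactivators that bind DNA through the TEAD factors. Kinases of the Hippo pathway, ending in LATS1 and LATS2, hold them in the cytoplasm, and spreading, stiff substrates and actin tension release them. Several of their target genes encode proteins that act back on the pathway, among them angiomotin-like scaffolds, Ajuba and Wwc1, and others encode matrix, surface and receptor proteins.

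The letters GGAATG, and CATTCC on the other strand, are the core sequence that TEAD factors bind, so the regions upstream of the members' start sites were searched for them. RefSeq promoters (GRCm38.p6) were matched for 8 of the 10 genes. Within the 250 bases before the start site, 5 of the 8 held a match on either strand, against 12.6% of 32851 promoters in the table and 10.9% of 13019 promoters of genes that were tested. Ankrd1 and Ajuba held 2 matches each, Amotl2, Axl and Crim1 held 1 each, and Amotl1, Nt5e and Wwc1 held none. The Nt5e, Amotl1, Ankrd1 and Amotl2 windows lie inside the annotated genes and hold 250, 56, 250 and 136 bases of their own exons. The sequence before the annotated start of these genes was therefore not searched, and the Ankrd1 and Amotl2 matches lie within the annotated genes. The windows with a match are shown 5′ to 3′ in the direction of transcription with the matches in capitals. They are whole for Ajuba (chr14:54577662-54577911, minus strand), Axl (chr7:25788734-25788983, minus strand) and Crim1 (chr17:78199998-78200247, plus strand).
Ajuba: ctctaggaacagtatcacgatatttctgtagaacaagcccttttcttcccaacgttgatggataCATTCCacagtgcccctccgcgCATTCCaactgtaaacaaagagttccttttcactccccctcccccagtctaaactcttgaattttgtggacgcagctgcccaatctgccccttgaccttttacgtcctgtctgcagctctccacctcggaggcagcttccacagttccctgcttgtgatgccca
Axl: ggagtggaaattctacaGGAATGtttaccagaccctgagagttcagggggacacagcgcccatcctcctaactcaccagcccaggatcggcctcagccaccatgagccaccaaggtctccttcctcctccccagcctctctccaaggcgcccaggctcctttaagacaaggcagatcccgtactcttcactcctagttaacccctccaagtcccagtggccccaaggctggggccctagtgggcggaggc
Crim1: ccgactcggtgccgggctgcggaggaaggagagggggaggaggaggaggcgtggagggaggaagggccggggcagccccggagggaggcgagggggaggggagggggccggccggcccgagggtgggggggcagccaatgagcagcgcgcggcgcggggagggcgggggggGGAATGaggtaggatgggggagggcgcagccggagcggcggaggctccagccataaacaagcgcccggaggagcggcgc
For Ankrd1 and Amotl2, whose windows hold 250 and 136 bases of annotated exons of the same gene, only the 30 bases around each match are shown. The Ankrd1 matches began 210 and 123 bases upstream of the RefSeq start (chr19:36120037-36120066 and chr19:36119950-36119979, minus strand), and the Amotl2 match 65 bases upstream (chr9:102717727-102717756, plus strand).
Ankrd1 distal: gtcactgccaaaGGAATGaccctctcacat
Ankrd1 proximal: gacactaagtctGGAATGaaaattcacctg
Amotl2: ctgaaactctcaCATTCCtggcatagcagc
In Ajuba the matches began 186 and 164 bases upstream, in Axl 233 and in Crim1 79. The Crim1 window also holds 28 bases of an exon of a long non-coding RNA. A match of 6 letters is a description of the sequence and not a measurement of binding.

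Of the 10 genes, Ccdc80 was higher and Nt5e was lower in R206H fibroblasts, and the other 8 did not pass the test. Those 8 all had lower means in R206H than in WT, so 9 of the 10 log2 changes were negative. Of all 14818 genes tested, 6869 had a negative change. Changes are log2(TPM + 1) in R206H minus WT, a scale on which low genes change less than their TPM ratio, and a gene passed at an adjusted p under 0.05 with limma and Benjamini-Hochberg adjustment over all 14818 genes tested. Among all genes tested, 2.04% passed in either direction, 1.26% upward and 0.79% downward. The median change of the members was -0.41, against 0.02 over all genes tested. The 3 R206H libraries lay below all 3 WT libraries in 6 members (Ajuba, Axl, Crim1, Nt5e, Nuak2 and Wwc1), while 15.0% of all genes tested were arranged that way, and above them in 1 member, Ccdc80, with 17.9% of all genes. The same 6 had an unadjusted limma p under 0.05, as did 11.7% of all genes in the downward direction, and Ccdc80 had one upward, as did 14.4%. With limma voom on read counts rebuilt from TPM, 5 members were lower (Ajuba, Axl, Nt5e, Nuak2 and Wwc1) and Ccdc80 was higher, beside 4.08% and 4.61% of 14785 genes called downward and upward. The number of members past the limma threshold was 4 without R206H library 1 and 0 without any 1 of the other 5 libraries, where 6 to 8 members had an unadjusted p under 0.05. Of all 14818 genes, 2561 to 3953 had such a p in those 5 fits. The number of all genes past the threshold was 722 without R206H library 1. It was 0 and 1 without R206H library 2 and 3, and 288, 5 and 1 without WT library 1, 2 and 3. In cultures of mixed cells, fewer cells that express a gene and less of its RNA per cell cannot be told apart.

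**Figure D1:**
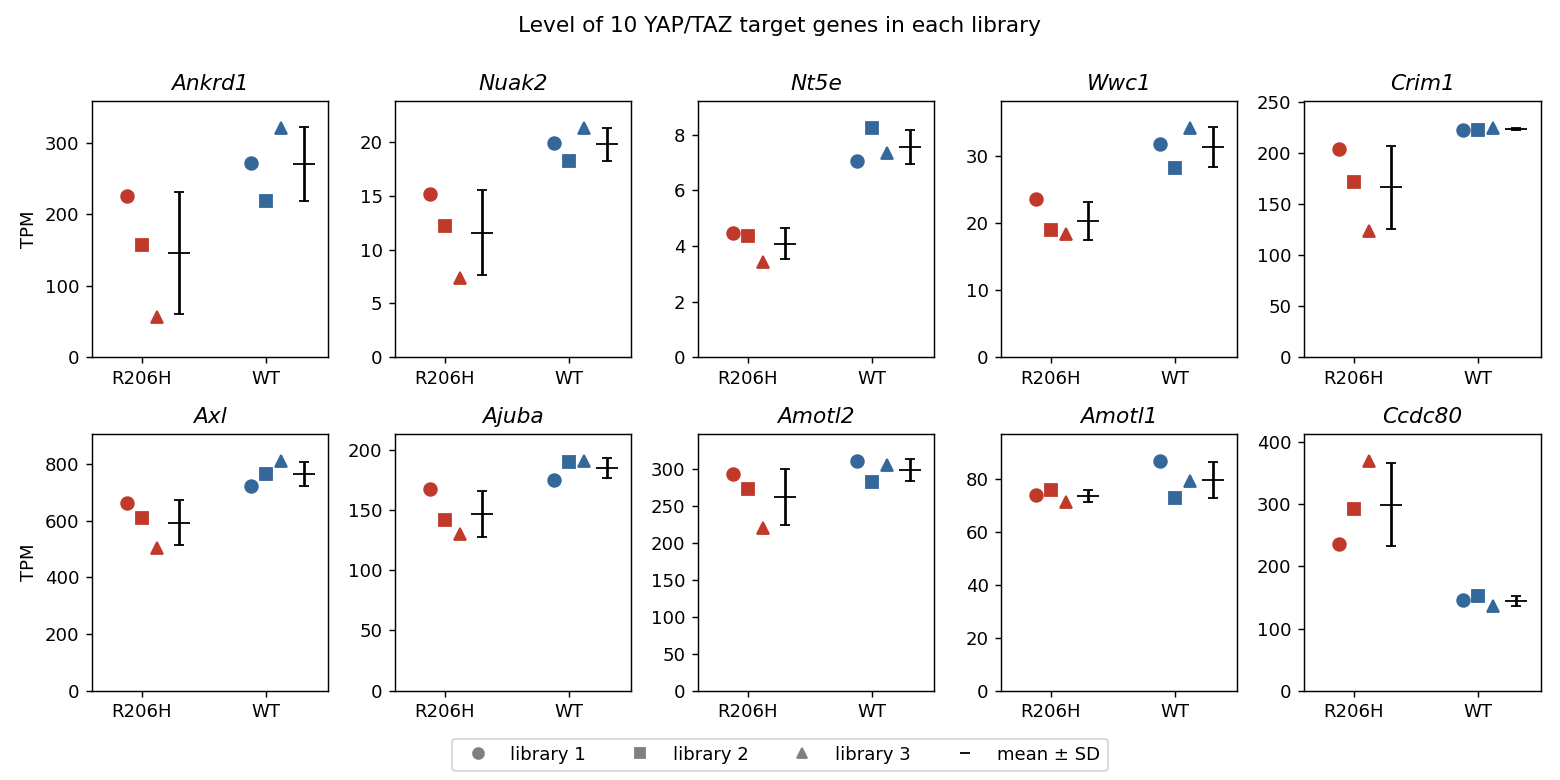
TPM of each of the 10 genes in every library, R206H in red on the left and WT in blue on the right of each panel, with the mean and SD of 3 libraries beside the points and each axis starting at 0. The R206H points lie below all WT points in 6 panels and above them for Ccdc80, and library 3 (triangles) is the lowest R206H point in the other 9.

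Ankrd1, a cardiac and skeletal muscle ankyrin repeat protein that also acts in the nucleus, had the largest negative value of the set and the widest spread. It had 225, 156 and 55.9 TPM in R206H libraries 1, 2 and 3, against 272, 218 and 320 TPM in WT libraries 1, 2 and 3. The groups overlapped, because R206H library 1 lay above WT library 2, and R206H library 3 was at 0.207 of the WT mean. The log2 change was -1.08 (SE 0.466, 95% interval -2.18 to 0.02, limma adjusted p = 0.198) and did not pass. It was -0.51 without R206H library 3 and -1.50 without R206H library 1. Ankrd1 is encoded at chr19:36111961-36120099 (GRCm38). Because Ankrd1 is strongly expressed in heart muscle, 12 markers of striated and cardiac muscle were summed beside it, at 953, 630 and 484 TPM in R206H libraries 1, 2 and 3, against 866, 624 and 752 TPM in WT libraries. Most of the sum came from Des, Acta1 and Actc1, and the log2 values farthest from 0 were those of Myh6, Tnnt2 and Actc1. Myh6, a cardiac myosin heavy chain gene, had 23.2 and 11.2 TPM in R206H libraries 1 and 2 and was listed at 0 in library 3, against 39.4, 15.5 and 65.3 TPM in WT libraries (limma adjusted p = 0.233). Tnnt2, the cardiac troponin T gene, had 25.6, 13.8 and 6.10 TPM in R206H and 27.4, 19.9 and 36.9 TPM in WT (limma adjusted p = 0.219), and Actc1, the cardiac actin gene, had a log2 value of -0.60 (limma adjusted p = 0.303). The 6 libraries stood in the same order for Myh6, Tnnt2 and Ttn as for Ankrd1. Acta1, Des, Myod1, Myog, Myh3, Myl4 and Tnnt1 were instead highest in R206H library 1, and Actc1 and Myf5 had other orders. Of the 11 muscle markers tested with limma none passed and none had an unadjusted p under 0.05, voom called none, 10 values were negative and 1 positive with a median of -0.21, and no marker was at 0 in all libraries. The part of muscle cells in the Ankrd1 values was not tested.

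The angiomotin-like genes Amotl1 and Amotl2 encode junction and actin scaffolds that bind YAP. Amotl2 had 294, 273 and 220.1 TPM in R206H and 309.9, 282 and 305 TPM in WT. Only R206H library 3 was far below the WT range, and the groups overlapped. Its log2 change was -0.20 (95% interval -0.45 to 0.06, limma adjusted p = 0.294). Amotl1 had 73.6, 75.8 and 71.3 TPM in R206H and 86.4, 72.7 and 79.2 TPM in WT, with a log2 change of -0.11 (95% interval -0.28 to 0.07, limma adjusted p = 0.406). Neither passed, and the intervals hold a decrease as well as no change. Amot, the founding angiomotin gene, averaged 35.9 ± 1.27 TPM in R206H and 44.3 ± 2.56 TPM in WT (SD, n = 3 each), with no overlap and a log2 change of -0.30 that did not pass (limma adjusted p = 0.0649).

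Wwc1 and Ajuba act on the LATS kinases, Wwc1 (also called KIBRA) as a scaffold that helps to activate them and Ajuba as a LIM-domain adaptor that restrains them. Wwc1 had 23.6, 18.9 and 18.3 TPM in R206H and 31.8, 28.2 and 34.1 TPM in WT. Every R206H library was below every WT library. This gave a log2 change of -0.61 (SE 0.118, 95% interval -0.89 to -0.33), just outside the threshold at a limma adjusted p of 0.0511 and inside it with voom (adjusted p = 0.0222). Ajuba had 167, 142 and 129.8 TPM in R206H, against 175, 189 and 190.1 TPM in WT. The gap between the groups was small, since R206H library 1 lay close to WT library 1. Its log2 change was -0.34 (SE 0.0954, limma adjusted p = 0.0888), with a voom adjusted p of 0.0462. Without R206H library 1, limma gave adjusted p = 0.0306 for Wwc1 and 0.0344 for Ajuba. With any other library left out neither passed (limma adjusted p = 0.0748 to 0.177 for Wwc1 and 0.0981 to 0.248 for Ajuba). The relatives of these 2 genes, Wwc2 and the Ajuba-family adaptors Limd1 and Wtip, stood at -0.27, -0.10 and -0.11 on the log2 scale, none past the threshold.

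Nuak2, a kinase of the AMPK-related family that acts on actomyosin, had 15.2, 12.2 and 7.36 TPM in R206H and 19.9, 18.2 and 21.3 TPM in WT. R206H library 3 had 0.371 of the WT mean and R206H library 1 had 0.766. Nuak2 had a log2 change of -0.78 (SE 0.229, 95% interval -1.32 to -0.24, limma adjusted p = 0.0974, voom adjusted p = 0.0429). Its paralog Nuak1 had 109.9, 115 and 125 TPM in R206H and 98.2, 80.4 and 82.1 TPM in WT, a log2 value of 0.42 that passed with voom (adjusted p = 0.0278) and not with limma (adjusted p = 0.0607). The values of the 2 paralogs therefore had opposite signs, and that difference itself was not tested.

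Nt5e encodes CD73, the surface enzyme that turns extracellular AMP into adenosine and a common marker of mesenchymal stromal cells. It was the weakest of the 10 genes, with 4.47, 4.37 and 3.43 TPM in R206H and 7.07, 8.25 and 7.36 TPM in WT. The groups were well separated and each was tight, with a WT mean 1.85 times the R206H mean. The log2 change was -0.75 (SE 0.136, 95% interval -1.07 to -0.43, limma adjusted p = 0.0476). Despite its low TPM the gene is long, and the values rested on an estimated 168 to 480 reads per library. The call was lost without R206H library 2 or 3 (adjusted p = 0.152 and 0.101) and without WT library 1, 2 or 3 (adjusted p = 0.0585, 0.152 and 0.167), while it held without R206H library 1 (adjusted p = 0.0456). Nt5e lies at chr9:88327197-88372092 (GRCm38). Of the other genes of adenosine handling, Entpd1, which produces AMP from ATP, and the receptor genes Adora1, Adora2a and Adora2b had log2 values of -0.15, -0.42, 0.15 and -0.29, and the transporter gene Slc29a1 and the deaminase gene Ada had -0.06 and 0.22. None of these 6 passed with limma, where Adora2b had an unadjusted p of 0.0431 and the other 5 had larger ones. The genes whose profile over the 6 libraries was most like that of Nt5e, by the root-mean-square difference of centred log2(TPM + 1), were Hspa4l, Tfrc and Mapk6, at 0.0789, 0.0923 and 0.0934. Hspa4l, a heat shock protein 70 family member, had 11.0 TPM in R206H and 17.7 TPM in WT on average. Tfrc is the transferrin receptor gene and Mapk6 encodes an atypical MAP kinase.

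Axl, a receptor tyrosine kinase, was the most abundant of the 10 genes in both genotypes. It had 661, 611 and 505 TPM in R206H and 721, 764 and 809 TPM in WT. All R206H libraries were below all WT libraries, by a modest margin. Axl had a log2 change of -0.38 (SE 0.103, 95% interval -0.62 to -0.13, limma adjusted p = 0.0865, voom adjusted p = 0.0421). The genes of its ligand and of the related protein S, an activator of the sister receptors, were higher in R206H and passed. Gas6, the ligand of Axl, had 152, 150.3 and 142 TPM in R206H and 103, 74.5 and 96.9 TPM in WT (log2 change 0.70, SE 0.118, limma adjusted p = 0.0476). Pros1, which encodes protein S, had 72.3, 84.8 and 114 TPM in R206H and 49.4, 44.7 and 34.6 TPM in WT (log2 change 1.05, SE 0.189, limma adjusted p = 0.0476). Neither passed without R206H library 2 or 3 (adjusted p = 0.152 and 0.0987 for Gas6, 0.152 and 0.0927 for Pros1) or without WT library 2 or 3 (0.0970 and 0.153 for Gas6, 0.139 and 0.167 for Pros1), and Gas6 missed the threshold without R206H library 1 (0.0520), as did Pros1 without WT library 1 (0.0520). The sister receptor genes Tyro3 and Mertk did not pass, at log2 values of 0.27 and -0.46 (limma adjusted p = 0.103 and 0.0688).

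Crim1, a transmembrane protein with cysteine-rich repeats that binds BMPs, had 204, 172 and 123 TPM in R206H and 223, 223 and 225 TPM in WT. The WT libraries were almost identical in level, with an SD of 1.14 TPM, while the R206H libraries spread over an SD of 40.8 TPM. The log2 change was -0.45 (SE 0.165, 95% interval -0.84 to -0.06, limma adjusted p = 0.148, voom adjusted p = 0.0785). By the GENCODE annotation, 2.05% of its exon bases are shared with exons of Fez2 on the other strand, and no other member shares exon bases with another gene. The genes of 3 secreted BMP-binding proteins with related cysteine-rich repeats, Chrd, Kcp and Bmper, did not pass either, at log2 values of 0.75, 1.04 and 0.46 (limma adjusted p = 0.0963, 0.0745 and 0.230).

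Ccdc80, a secreted protein of the extracellular matrix, was the exception in direction. It had 237, 293 and 369 TPM in R206H and 146, 152 and 137 TPM in WT, 2.07 times higher on average. The lowest R206H library was well above the highest WT library. The log2 change was 1.02 (SE 0.149, 95% interval 0.67 to 1.37, limma adjusted p = 0.0454). It no longer passed without R206H library 2 or 3 (adjusted p = 0.152 and 0.0641) or without WT library 1, 2 or 3 (adjusted p = 0.0515, 0.125 and 0.151), and passed without R206H library 1 (adjusted p = 0.0190). Ccdc80 lies at chr16:45093402-45128077 (GRCm38). Srpx2 and Srpx, secreted proteins that share a domain with Ccdc80, had values in the same direction. Srpx2 passed, with 23.4, 26.1 and 21.7 TPM in R206H and 14.0, 13.6 and 14.5 TPM in WT (log2 change 0.72, limma adjusted p = 0.0362), and Srpx, at a log2 value of 1.34, missed the threshold (adjusted p = 0.0678). Srpx2 passed without R206H library 1 or WT library 1 and not without R206H library 2 or 3 (adjusted p = 0.152 and 0.0641) or WT library 2 or 3 (adjusted p = 0.122 and 0.149). The profiles most like that of Ccdc80 over the 6 libraries were those of Dnm3os, a host RNA of microRNAs, Cacna2d1, a calcium channel subunit, and Rerg, a small GTPase, with root-mean-square differences of 0.0491, 0.0502 and 0.0562 in log2(TPM + 1). The summed level of 8 fibroblast markers was 8380, 9402 and 10680 TPM in R206H libraries 1, 2 and 3 and 6971, 6168 and 5381 TPM in WT libraries. The collagen gene Col1a1 made up 47.4% to 53.6% of the sum in R206H and 27.9% to 46.1% in WT, and without it the sums were 4405 to 4954 TPM in R206H and 3759 to 4239 TPM in WT. Most of that remainder was Vim, at 3025 to 3223 TPM in R206H and 2812 to 3485 TPM in WT (log2 value -0.03). Col1a1, Col1a2 and Thy1 had log2 values of 1.2, 1.08 and 1.17, and Dcn had 0.16. None of the 8 passed with limma. An unadjusted p under 0.05 upward was seen in 5, beside 14.4% of all genes tested, and voom called 5 higher, beside 4.61%. Of the 8 values 7 were positive and 1 negative, with a median log2 value of 0.89. The part of the makeup of the cultures in the Ccdc80 values was not tested.

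**Figure D2:**
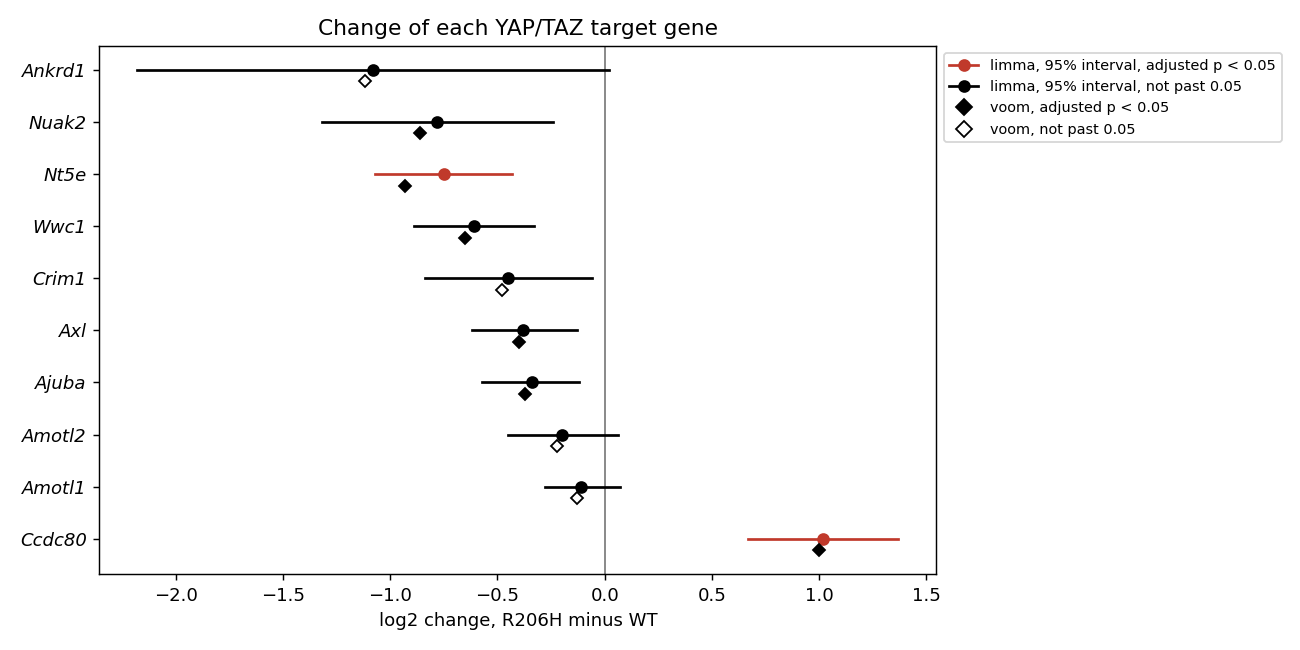
Log2 change of each of the 10 genes, R206H minus WT, on log2(TPM + 1) with limma (circles with 95% intervals, red where the adjusted p was under 0.05) and on rebuilt reads with voom (diamonds, filled where the adjusted p was under 0.05). Only Ccdc80 lies to the right of 0, and the intervals of Ankrd1, Amotl1 and Amotl2 include 0.

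The order of the levels was largely shared by the genotypes, on the TPM scale that takes account of length. In R206H the mean levels ran from 592 TPM for Axl through 299 for Ccdc80, 262 for Amotl2, 167 for Crim1, 146.2 for Ajuba, 145.6 for Ankrd1, 73.6 for Amotl1, 20.3 for Wwc1 and 11.6 for Nuak2 to 4.09 for Nt5e. In WT they ran from 765 TPM for Axl through 299 for Amotl2, 269.9 for Ankrd1, 224 for Crim1, 185 for Ajuba, 145 for Ccdc80, 79.4 for Amotl1, 31.3 for Wwc1 and 19.8 for Nuak2 to 7.56 for Nt5e. Among neighbours in R206H, Ccdc80 and Amotl2 overlapped, as did Crim1 with Ajuba, Ajuba with Ankrd1 and Ankrd1 with Amotl1. Among neighbours in WT, Amotl2 overlapped with Ankrd1 and Ankrd1 with Crim1. By mean level, Ccdc80 had rank 2 in R206H and rank 6 in WT, and Ankrd1 had rank 6 in R206H and rank 3 in WT. Together the 10 genes took 0.190%, 0.176% and 0.150% of TPM in R206H libraries 1, 2 and 3, against 0.199%, 0.196% and 0.213% in WT libraries 1, 2 and 3.

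The R206H libraries stood in a similar order in most of the 10 genes. In 9 of the 10 genes, all but Ccdc80, library 3 was the lowest of the R206H libraries, and library 1 was the highest in 8 of those 9. The share of all genes tested that stood in this order was not counted. The median difference of the 9 genes from the WT mean was -0.21, -0.38 and -0.74 in R206H libraries 1, 2 and 3, and 0.01, -0.08 and 0.04 in WT libraries 1, 2 and 3, in log2(TPM + 1). These 9 are the members with a negative change in the same libraries, so R206H medians below 0 follow largely from that choice. For Ccdc80 the difference from the WT mean was 0.71, 1.01 and 1.35 in R206H libraries 1, 2 and 3. The spread within R206H was widest for Ankrd1, with an SD of 1.03 in log2(TPM + 1), and narrowest for Amotl1, with an SD of 0.044. On the first principal component of all genes tested the R206H libraries lay in the same order, at -7.24, -20.7 and -39.5, with WT libraries at 18.0, 20.3 and 29.1. Without R206H library 3 the median change of the 10 genes was -0.26, and without R206H library 1 it was -0.54.

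Markers of other cell types also differed between these libraries. The summed level of 12 epithelial markers was 376, 284 and 182 TPM in R206H libraries 1, 2 and 3 and 566, 527 and 554 TPM in WT libraries. The keratin gene Krt19 was the largest part of it in every library, at 230, 185.5 and 143 TPM in R206H and 218, 327 and 312 TPM in WT. Its groups overlapped and it did not pass (log2 -0.62, limma adjusted p = 0.126). Of the 10 epithelial markers tested, Cldn3 and Epcam were lower (limma adjusted p = 0.0272 and 0.0476), beside 0.79% of all genes tested. Their levels were low, at means of 2.14 and 0.904 TPM in R206H and 10.3 and 4.52 TPM in WT. The junction gene Cldn4 and the keratin gene Krt7 missed the threshold at log2 values of -1.70 and -1.08, and all 10 were negative, with a median of -1.52. All 10 had an unadjusted limma p under 0.05, beside 11.7% of all genes downward. In 9 the R206H libraries lay below all WT libraries, beside 15.0%, and voom called 6 lower, beside 4.08%. The sum of 7 mesothelial markers was 146, 97.8 and 47.1 TPM in R206H and 172, 131 and 163 TPM in WT, and 1 of the 6 tested, Msln, was lower (limma adjusted p = 0.0489). Msln made up 39.8% to 55.9% of that sum in R206H and 59.1% to 75.4% in WT. Of the 6 values 3 were positive and 3 negative, with a median of 0.01, and without Msln the sums were 20.8 to 87.9 TPM in R206H and 32.2 to 70.3 TPM in WT. The calls of Cldn3, Epcam and Msln were lost without R206H library 2 or 3 or WT library 3 (adjusted p = 0.0641 to 0.167). Without WT library 2, Cldn3 passed (adjusted p = 0.0373) while Epcam and Msln did not (0.136 and 0.141), and Msln did not pass without WT library 1 (0.0667). Endothelial markers summed to 19.6, 16.0 and 15.7 TPM in R206H libraries 1, 2 and 3 and 38.3, 18.9 and 21.5 TPM in WT libraries 1, 2 and 3. Macrophage markers summed to 28.2 to 48.2 TPM in R206H and 28.1 to 32.6 TPM in WT. None of the 5 endothelial and 6 macrophage markers tested passed with limma. No marker of these 4 lists was at 0 in all 6 libraries. The part of these cells in the values of the 10 genes was not tested.

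**Figure D3:**
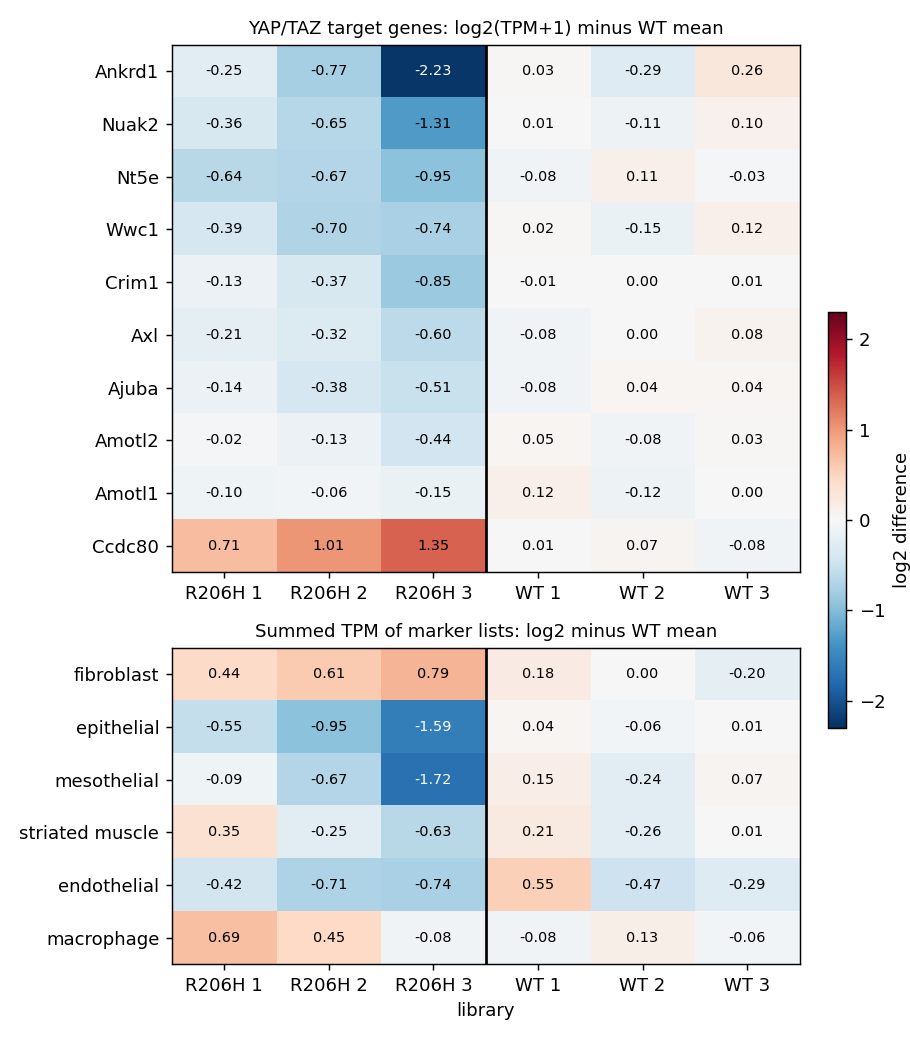
Upper panel, difference of log2(TPM + 1) from the WT mean for each of the 10 genes (rows) in each library (columns, R206H left of the line). Lower panel, log2 of the summed TPM of each marker list over its WT mean, on the same colour scale. R206H library 3 is the farthest from WT for all 10 genes, from -2.23 for Ankrd1 to 1.35 for Ccdc80, and for the epithelial (-1.59) and mesothelial (-1.72) sums.

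A further 15 genes of a widely used YAP/TAZ target signature were set beside the 10. None passed with limma, 4 had an unadjusted p under 0.05 upward and 5 downward, and voom called 2 in each direction. Of all genes tested, 14.4% had such a p upward and 11.7% downward, and voom called 4.61% higher and 4.08% lower. Their median log2 change was -0.08, with 9 values negative and 6 positive. The kinase gene Lats2, itself a target, had 68.5, 60.6 and 53.4 TPM in R206H and 83.6, 77.4 and 91.8 TPM in WT (log2 -0.47, limma adjusted p = 0.0635). The Arf GTPase-activating protein gene Asap1 had a value of -0.24 (adjusted p = 0.0847). In the other direction, the ligand gene Tgfb2 had 31.3 ± 3.19 TPM in R206H and 20.8 ± 3.41 TPM in WT (SD, n = 3 each, log2 0.57, limma adjusted p = 0.0644). Igfbp3, an IGF-binding protein gene, had 104, 126 and 213 TPM in R206H and 102, 44.6 and 36.0 TPM in WT (log2 1.34, limma adjusted p = 0.106). The classical targets Ctgf and Cyr61, named after their values were seen, averaged 939 ± 291 and 1625 ± 152 TPM in R206H and 1213 ± 60.0 and 1722 ± 83.9 TPM in WT (SD, n = 3 each), with overlap between the groups. Ctgf had a log2 value of -0.42 and Cyr61 one of -0.09 (limma adjusted p = 0.277 and 0.544).

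The genes of the pathway that controls YAP and TAZ had values on both sides of 0. Of 22 Hippo pathway genes, Lats2 again among them, 1 was lower and none higher with limma, beside 0.79% and 1.26% of all genes tested. The median was 0.01. An unadjusted limma p under 0.05 was seen in 5 upward and 3 downward, beside 14.4% and 11.7% of all genes. Voom called 1 higher and 3 lower, beside 4.61% and 4.08%. The gene lower with limma was the DNA-binding partner Tead4. It had 16.4, 13.0 and 13.1 TPM in R206H and 23.7, 22.1 and 26.5 TPM in WT (log2 change -0.73, SE 0.117, limma adjusted p = 0.0470). Tead4 passed without R206H library 1 (adjusted p = 0.0280) and not without R206H library 2 or 3 (0.152 and 0.0985) or WT library 1, 2 or 3 (0.0564, 0.125 and 0.162). Yap1 and Wwtr1, which encodes TAZ, were named after their values were seen and had log2 values of 0.17 and 0.02 (limma adjusted p = 0.0954 and 0.812). The atypical cadherin gene Fat4 had a value of 1.32 and the kinase gene Stk4 one of -0.38, and neither passed (limma adjusted p = 0.0678 and 0.0922). Acvr1 itself had 43.9, 47.3 and 42.0 TPM in R206H and 35.7, 34.6 and 33.7 TPM in WT (log2 0.35, limma adjusted p = 0.0511), and its level does not check the genotype, since the allele changes 1 amino acid.

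**Figure D4:**
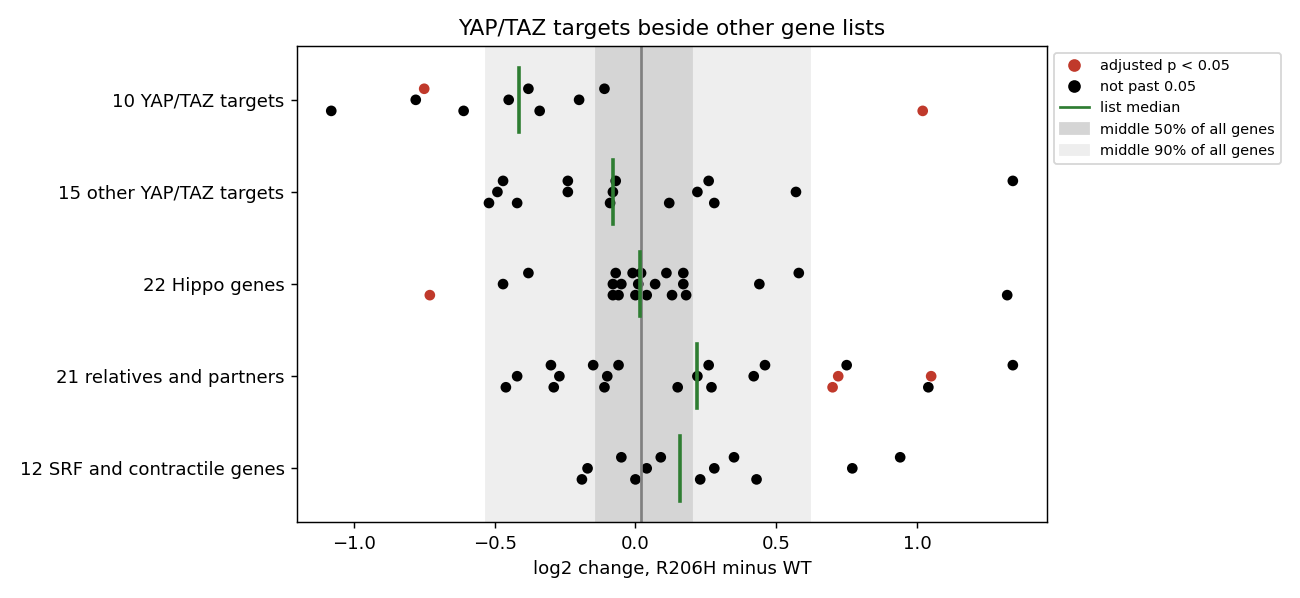
Log2 change of each gene, R206H minus WT, in 5 gene lists, with list medians in green, genes at an adjusted p under 0.05 in red and the middle 50% and 90% of all 14818 genes tested shaded in grey. The 10 genes have a median of -0.41, the 15 other targets -0.08 and the 22 Hippo genes 0.01.

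The libraries held an estimated 17500000 to 24600000 reads, inferred from the steps in the TPM values. Among the 10 genes the fewest reads were 164, for Nuak2 in R206H library 3, and the most were 26025, for Axl in WT library 2.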

How the data were processed

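A total of 6 libraries of ribosomal-RNA-depleted total RNA were compared, 3 Acvr1R206H/+ and 3 wild type, grouped by their titles. The authors deposited TPM values, and each library sums to 1000000. The submitters' processing notes list DESeq2, Subread, featureCounts, STAR and Trimmomatic, and GRCm38 (mm10) as the build, without roles or versions. The strand setting, the annotation and the gene lengths used are not stated in the sources used here. Because TPM are shares of a library, a change in abundant transcripts shifts the values of the rest.

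The 14818 genes that reached TPM 1 in 3 or more libraries were compared by limma (version 3.58.1, R 4.3.3) on log2(TPM + 1) (lmFit, eBayes with a mean-variance trend, two-sided, no covariate), with Benjamini-Hochberg adjustment at 0.05. Read counts were rebuilt from TPM and GENCODE M21 exon-union lengths for limma voom. Of the values under 100 reads, 91.1% to 91.5% came out within 0.05 of a whole read, and 49056 of 49315 identifiers had a length. Python 3.11.15, pandas 2.3.3 and matplotlib 3.10.9 were used for joining and plotting.

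The members and lists were chosen with earlier results of these data known, so their counts and medians are descriptions. The naming rule took all members, the called genes and up to 4 genes by smallest p of each other list, and the 3 tested genes at a mean of 5 TPM or more most like each called member. Gene models without a name were skipped. Relatives of a member and genes named beside it outside this rule were named after their values were seen. Alternatives were other pseudocounts, filters, scalings, limma settings and leaving out each library.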

Additional observations from a re-analysis of the deposited data

How the results depend on the processing

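The sign of all 10 members' log2 changes was kept in all 17 alternatives. Nt5e passed in 7 of them (log2 change -0.93 to -0.47, adjusted p 0.0157 to 0.167), Ccdc80 in 9 (0.86 to 1.18, 0.0134 to 0.152), Wwc1 in 4, Ajuba in 3, and Nuak2 and Axl in 2 each. Ankrd1, Crim1, Amotl1 and Amotl2 passed in none of them. The number of members past the threshold was 2 as reported. It was 1 with a pseudocount of 0.1 and with quantile normalization, 0 with no filter and with no trend, 6 with library weights and 6 with voom, and 0 to 4 with each library left out. For all genes, 303 as reported, the counts were 129 with a pseudocount of 0.1, 2 with no filter, 587 with a filter at TPM 5, 200 with quantile normalization, 27 with no trend, 1906 with library weights, 1284 with voom, and 0 to 722 with each library left out. For the genes of the other lists, 7 as reported, they were 4 with a pseudocount of 0.1, 0 with no filter, 14 with a filter at TPM 5, 1 with no trend, 38 with library weights, 29 with voom, and 0 to 16 with each library left out. The causes were not tested, apart from the construction of each fit, which tests more or fewer genes or rests on fewer libraries.

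The labels give both genotypes replicate numbers 1 to 3, but nothing ties equal numbers together, and deviations from the group means correlated at 0.018, 0.0599 and -0.0283 for numbers 1, 2 and 3. With limma and the replicate number as a block, 0 members, 0 genes of the other lists and 0 of all genes passed, with 7 members and 3301 genes at an unadjusted p under 0.05. With the median-of-ratios scaling the median of all genes was within 0.1 of its reported value in log2. The weakest members had as few as 164 reads (Nuak2) and 168 reads (Nt5e) in their lowest libraries, and the effect of depth was not tested.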

Other observations

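Genes of serum response factor (SRF) and the contractile apparatus, a second group that responds to actin tension, were set beside the 10 genes. Of 12 such genes none passed with limma, 4 had an unadjusted p under 0.05 upward and 0 downward, beside 14.4% and 11.7% of all genes tested, and voom called 1 higher. The median log2 value was 0.16, with 9 values positive and 3 negative (Srf, Actn1 and Tagln). Cnn1, which encodes calponin, had 232, 215 and 155 TPM in R206H libraries 1, 2 and 3 and 115, 122 and 76.7 TPM in WT libraries (log2 0.94, limma adjusted p = 0.0629). Tpm2, a tropomyosin gene, averaged 518 ± 47.6 TPM in R206H and 424 ± 6.95 TPM in WT (SD, n = 3 each, log2 0.28, limma adjusted p = 0.0779). Vcl, the vinculin gene, and Myl9, a myosin light chain gene, had log2 values of 0.23 and 0.43 (limma adjusted p = 0.122 and 0.133). Srf itself had a value of -0.17 (adjusted p = 0.294). Whether the 2 groups differ from each other was not tested.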
